A study of Mus musculus with 82 samples.

Results

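Drug-metabolising enzymes that attach a polar group to their substrate, or oxidise or hydrolyse it, were followed in mouse ear skin treated with imiquimod cream, a TLR7 agonist used to inflame the skin, and with the CCR6 inhibitor IDOR-1117-2520. CCR6 is a chemokine receptor of T cells and dendritic cells. The members were the genes whose symbols begin with Ugt1 to Ugt3, Gsta, Gstm, Gstp, Gstt, Gsto or Gstz, Sult, Ces, Adh or Aldh and a number, without pseudogene symbols ending in -ps, and with at least 0.5 CPM (counts scaled to a library total of 1 M) in 6 or more libraries of either count table. Of 120 matching symbols, 10 were pseudogene symbols and 50 stayed below the level, which left 60 members. They were 20 aldehyde dehydrogenases (Aldh), 20 glutathione S-transferases (Gst), 7 carboxylesterases (Ces), 5 alcohol dehydrogenases (Adh), 4 sulfotransferases (Sult) and 4 UDP-glucuronosyltransferases (Ugt). In contrast, 17 of the matching Sult symbols, 17 of the Ugt symbols and 12 of the Ces symbols stayed below it. Gstm3, which reached 0.5 CPM in 3 time-course libraries, and Ugt1a5, which reached it in 1 library with a highest value of 1.14 CPM, lay just outside, and 57 members remained at a level of 1 CPM.

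Right ear punches of female C57BL/6J Rj mice, whose age the labels do not give, were the source of all libraries. In the time course, groups given IDOR-1117-2520 in the drinking water with 5% imiquimod cream on the ears (drug), imiquimod alone and sham (called vehicle in the treatment label) were taken at days 2, 5 and 8, with 6 libraries each except 4 for sham at day 5. The protocol has the cream applied once a day, 8 times in all, and the drug start at least 1 day before the first application. Ears taken at day 2 or day 5 were taken before that schedule of cream could be complete. In the start-day experiment, groups of 6 libraries had imiquimod with the drug starting at day 0, day 3 or day 5, imiquimod alone, or sham. The time label of that experiment reads day 8 for sham, imiquimod and the drug from day 0, day 5 for the drug from day 3 and day 3 for the drug from day 5, which was read as time on treatment; the day of sampling is not stated for that experiment. The treatment label of the drug groups spells the compound IDOR-1117-2520C. No allele or genetic change is labelled in any group. Whether each library came from its own animal is not labelled, and p values therefore reflect how far these samples vary among themselves, which may be technical variation. Both tables hold estimated counts, printed here as CPM of each library's total, and differences are edgeR log2 fold changes ± SE on TMM-scaled counts, called at an adjusted p under 0.05.

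Glutathione S-transferases join glutathione to electrophiles, UDP-glucuronosyltransferases add glucuronic acid and sulfotransferases add sulfate, which makes lipophilic compounds soluble and easier to export. Alcohol dehydrogenases turn alcohols, retinol among them, into aldehydes, aldehyde dehydrogenases turn aldehydes into acids, and carboxylesterases split esters. In skin these enzymes take part in the handling of lipid peroxidation products and of topical compounds, in retinoic acid synthesis and in the lipid chemistry of the barrier and sebaceous gland.

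Promoters of 6 glutathione S-transferases of the alpha and pi classes are shown because close relatives within each class moved apart under imiquimod: Gsta1 and Gstp3 rose in every imiquimod comparison, Gsta2 and Gstp2 fell in 3 of 4, and Gstp1 moved little. Each is the 250 bases before the start of the gene in RefSeq, build GRCm38.p6, 5′ to 3′ on the strand of the gene. Capitals mark matches, on either strand, to TGACNNNGC (core of the NRF2-bound antioxidant response element), TGANTCA (AP-1 site) or TNGCGTG (AHR element core).
Gsta1, chr9:78230419-78230668, plus strand: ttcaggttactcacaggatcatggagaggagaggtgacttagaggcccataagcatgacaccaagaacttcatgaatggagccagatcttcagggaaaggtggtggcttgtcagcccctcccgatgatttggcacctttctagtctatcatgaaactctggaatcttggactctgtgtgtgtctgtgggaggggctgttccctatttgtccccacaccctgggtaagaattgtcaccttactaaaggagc
Gsta2, chr9:78347146-78347395, minus strand: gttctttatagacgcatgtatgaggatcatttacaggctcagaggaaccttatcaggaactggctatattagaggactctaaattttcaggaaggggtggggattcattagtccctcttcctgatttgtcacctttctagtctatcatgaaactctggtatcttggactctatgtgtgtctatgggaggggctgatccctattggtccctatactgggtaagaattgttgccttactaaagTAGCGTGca
Gsta3, chr1:21240335-21240584, plus strand: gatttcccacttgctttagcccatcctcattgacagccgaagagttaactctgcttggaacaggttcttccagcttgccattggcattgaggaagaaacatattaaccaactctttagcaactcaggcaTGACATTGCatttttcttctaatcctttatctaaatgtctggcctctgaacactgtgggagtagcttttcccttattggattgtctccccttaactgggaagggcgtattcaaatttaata
Gstp1, chr19:4037913-4038162, minus strand: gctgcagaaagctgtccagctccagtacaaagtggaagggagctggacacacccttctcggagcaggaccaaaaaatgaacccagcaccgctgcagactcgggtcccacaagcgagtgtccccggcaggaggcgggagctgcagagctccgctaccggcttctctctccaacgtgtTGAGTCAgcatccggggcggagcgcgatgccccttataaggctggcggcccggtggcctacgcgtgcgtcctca
Gstp2, chr19:4042222-4042471, minus strand: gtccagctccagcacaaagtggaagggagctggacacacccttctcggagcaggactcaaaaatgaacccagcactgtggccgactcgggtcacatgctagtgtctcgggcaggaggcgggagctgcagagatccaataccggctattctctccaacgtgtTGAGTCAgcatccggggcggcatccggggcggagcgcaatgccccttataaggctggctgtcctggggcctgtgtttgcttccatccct
Gstp3, chr19:4059448-4059697, minus strand: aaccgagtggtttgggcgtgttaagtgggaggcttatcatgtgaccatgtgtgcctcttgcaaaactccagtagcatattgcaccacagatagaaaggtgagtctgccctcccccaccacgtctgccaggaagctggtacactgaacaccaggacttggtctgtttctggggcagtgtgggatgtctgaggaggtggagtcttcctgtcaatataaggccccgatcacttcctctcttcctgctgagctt
The Gstp1 and Gstp2 stretches were 78.1% identical and both held TGAGTCA, 74 bases before the start in Gstp1 and 89 bases before it in Gstp2. The Gsta1 and Gsta2 stretches were 70.5% identical, and of the pair only Gsta2 held a match, to the AHR element core. Gsta3 held TGACATTGC, and Gstp3 held none of the 3 motifs. RefSeq promoters were found for 46 of the 60 members, some with several starts. Over the same 250 bases, TGACNNNGC was in 10.3% of the 58 member entries and 10.2% of all 32851 promoters, TGANTCA in 12.1% of member entries and 6.75% of all, and TNGCGTG in 6.9% of member entries and 4.1% of all. The entries with TGANTCA belonged to Adh7, Aldh1a1, Gstm5, Gstp1, Gstp2, Sult2b1 and Ugt1a6a. A match is a run of letters and not a measured binding site.

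Several members are near copies of each other, so counts may be split between them. In GENCODE M21 transcripts, 12 of the 60 members shared over 20% of their 31-base words with another gene. The shares were 92.9% in Gsta1, most of it with the predicted gene Gm3776, 84.2% in Ugt1a6b, 62.2% in Gsta5, 60.7% in Gsta2, 60.3% in Gstp2 and 38.5% in Gstp1. Of the Ugt1a genes, which use a common set of exons behind first exons of their own, Ugt1a1 shared 58.5%, Ugt1a7c 55.7% and Ugt1a6a 53%. Aldh4a1 shared 31%, Aldh3b2 30.7%, nearly all with Aldh3b3, and Gstm1 28.8%, most of it with Gstm2-ps1. Values of these 12 genes are uncertain as to which copy the reads came from. In RefSeq order, the members also sit in runs of neighbours, among them 5 Adh genes, 6 Gstm genes, 4 Ugt1a genes, and a run of Aldh3b1, Aldh3b2 and Aldh3b3 with Gstp1, Gstp2 and Gstp3.

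Time-course libraries held 13.1 to 35.4 M counts and those of the start-day experiment 24.1 to 35.5 M, and keratinocyte markers were found in every group. At day 2, imiquimod libraries 9 and 11 were the lowest of their group for Gstm1, at 76.1 and 71.8 CPM and 95.4 to 111 CPM in the other 4, and for Adh1, at 20.3 and 23.1 CPM and 31.2 to 37.1 CPM in the other 4. They were the highest for Gsta4, at 236 and 194 CPM, but library 8 was close behind at 179 CPM and the other 3 were at 64.1 to 82.6 CPM. Library 11 was also the shallowest of all, at 13.1 M counts. The day 2 counts of called members and the day 2 differences of Gsta4 are given with and without them, and most other day 2 values with all libraries. Scaling by library totals alone in place of TMM moved the median of all genes between imiquimod and sham by -0.08 at day 2, -0.19 at day 5, -0.17 at day 8 and -0.22 in the start-day experiment, on the log2 scale.

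Imiquimod moved members in both directions, and the losses outnumbered the gains at day 5, at day 8 and in the start-day experiment. At day 2, 23 of 60 members were higher and 23 lower in imiquimod than in sham ears, 46 called. Of all 18780 tested genes, 57.7% were called, 29.2% higher and 28.5% lower. With library totals alone, 20 members were higher and 27 lower. Without imiquimod libraries 9 and 11, 22 members were higher and 20 lower, as were 4854 and 4356 of 18741 genes. At day 5, 20 were higher and 30 lower, against 70.4% of all genes called, 34.6% higher and 35.9% lower. At day 8, 21 were higher and 32 lower, against 68.1% of all genes, 34.5% higher and 33.6% lower. Of 58 members tested in the start-day experiment, 24 were higher and 31 lower, against 78.1% of all genes, 38.1% higher and 39.9% lower. The median member differed by -0.10 at day 2, -0.39 at day 5, -0.49 at day 8 and -0.49 in the start-day experiment, while the median of all tested genes lay between -0.04 and -0.01. In bulk tissue, fewer cells of a type and less RNA per cell cannot be told apart.

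Of the 58 members tested in both experiments, 19 were lower and 17 higher in all 4 imiquimod comparisons, as were 21.4% and 23.7% of 18198 genes. The 19 lower ones were Adh1, Aldh1a1, Aldh1a7, Aldh1b1, Aldh2, Aldh3a2, Aldh4a1, Aldh6a1, Ces1d, Ces1f, Gstm1, Gstm2, Gstm5, Gstm7, Gstt1, Gstt3, Gstz1, Sult1a1 and Sult5a1. The 17 higher ones were Aldh16a1, Aldh18a1, Aldh1a3, Aldh1l2, Aldh3b1, Aldh3b2, Aldh3b3, Aldh9a1, Ces2e, Ces2g, Gsta1, Gsta4, Gsto1, Gstp3, Sult2b1, Sult4a1 and Ugt1a7c. Adh6a, Adh6b and Ces4a were higher at day 2 and lower at day 8, as were 0.469% of 18780 genes, and 0 of 60 members did the reverse, as did 0.767% of genes. Sizes changed with the day: the imiquimod effect differed among days 2, 5 and 8 for 37 of 60 members by edgeR's F test, where 33.4% of all genes were called.

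**Figure D1:**
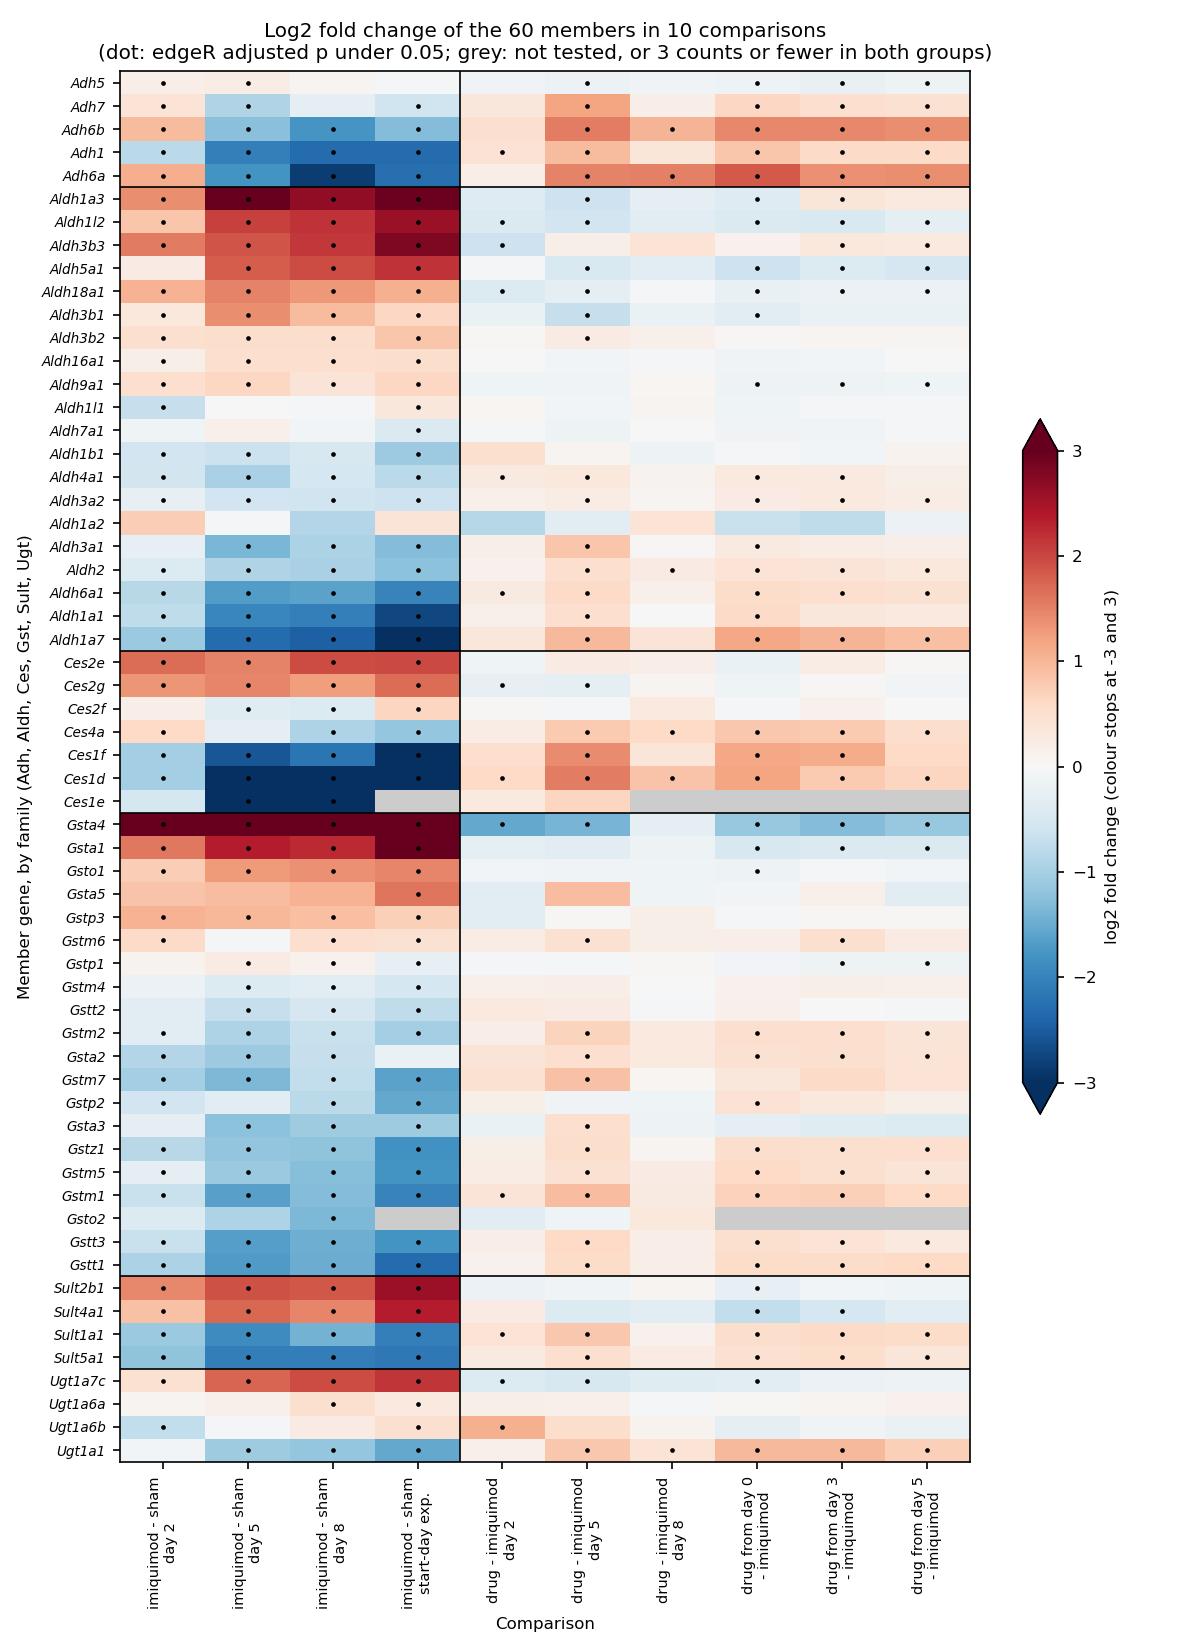
Heat map of edgeR log2 fold changes of the 60 members (rows, by family) in the 4 imiquimod minus sham and the 6 drug minus imiquimod comparisons (columns), with red for higher and blue for lower in the first-named group, a dot for an adjusted p under 0.05, grey where a gene was not tested or had 3 or fewer counts in both groups, and colour that stops at -3 and 3. The imiquimod columns hold 23, 20, 21 and 24 called rises and 23, 30, 32 and 31 called falls.

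The glutathione S-transferase with the largest rise was Gsta4, an alpha-class enzyme that conjugates 4-hydroxynonenal, an aldehyde from lipid peroxidation. It was at 64.1 to 236 CPM (median 131) in imiquimod ears at day 2, against 5.92 to 27.9 CPM (median 7.58) in sham ears, a difference of 3.74 ± 0.37 (adjusted p = 1.17e-11). At day 5 imiquimod ears held 243 to 369.7 CPM (median 310.2), against 5.65, 5.73, 6.93 and 7.04 CPM in the 4 sham ears (5.81 ± 0.48, adjusted p = 2.48e-14). At day 8 the ranges were 138 to 206 CPM (median 179.8) in imiquimod ears and 6.92 to 9.43 CPM (median 7.32) in sham ears (4.70 ± 0.39, adjusted p = 1.82e-14). No imiquimod library reached down to a sham library on any day, and the highest sham value, 27.9 CPM, was 1 library of day 2. Gsta4 in the start-day experiment was at 225 to 353 CPM (median 288) in imiquimod ears and 7.65 to 14.5 CPM (median 9.05) in sham ears (5.15 ± 0.18, adjusted p = 2.01e-19). Without imiquimod libraries 9 and 11 the day 2 difference was 3.26.

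Gsto1, an omega-class enzyme with thioltransferase and dehydroascorbate reductase activity, rose by less. It was at 221 to 241 CPM (median 225) in imiquimod ears at day 8, against 87.9 to 109.6 CPM (median 99.9) in sham ears (1.37 ± 0.05, adjusted p = 3.24e-28), with no overlap at any day. Its difference was 0.74 at day 2 and differed among days (edgeR adjusted p = 4.51e-10). Gsta1, another alpha-class enzyme, was at 14.6 to 23.1 CPM (median 17.1) in imiquimod ears, against 2.47 to 6.14 CPM (median 4.34) in sham ears (2.24 ± 0.20, adjusted p = 2.88e-14), and reached 3.18 in the start-day experiment. Gstp3, of the pi class, rose by 0.89 at day 8 and 0.71 in the start-day experiment. Gstm6 was the single mu-class member called higher, by 0.57 at day 2, 0.49 at day 8 and 0.46 in the start-day experiment, with overlapping groups.

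Most members of the mu, theta and zeta classes fell. Over the 20 Gst members, 5 were higher and 9 lower at day 2, 5 and 11 at day 5, and 6 and 13 at day 8. Of 19 tested in the start-day experiment, 6 were higher and 12 lower. Of all genes, 28.5%, 35.9%, 33.6% and 39.9% were lower in these 4 comparisons, and 29.2%, 34.6%, 34.5% and 38.1% higher. Gstm1, a mu-class enzyme and one of the more widely expressed transferases, was at 55.3 to 63.96 CPM (median 57.6) in imiquimod ears at day 8, against 155 to 176 CPM (median 162) in sham ears (-1.29 ± 0.09, adjusted p = 2.04e-17). In the start-day experiment it was at 34.6 to 43.3 CPM (median 41.1) in imiquimod ears and 175 to 199 CPM (median 187) in sham ears (-1.995 ± 0.07, adjusted p = 1.14e-20). The groups were apart on all days. Gstm2 fell by less, to 38.1 to 45.2 CPM (median 41.2) in imiquimod ears at day 8, against 64.9 to 81.8 CPM (median 74.1) in sham ears (-0.67 ± 0.09, adjusted p = 2.14e-09). Gstm5 was at 20.6 to 30.4 CPM (median 24.2) in imiquimod ears and 57.3 to 74.5 CPM (median 66.4) in sham ears (-1.27 ± 0.09, adjusted p = 2.31e-17). Gstm7 differed by -0.75 and Gstm4 by -0.34 at day 8. Both Gstm2 and Gstm5 overlapped sham ears at day 2 and were clear of them from day 5.

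Gstt1, a theta-class enzyme that acts on small halogenated compounds, was at 2.995 to 4.95 CPM (median 4.46) in imiquimod ears at day 8, against 10.8 to 18.02 CPM (median 13.2) in sham ears (-1.49 ± 0.13, adjusted p = 1.96e-14). Gstt3 fell in parallel, by 1.46 at day 8 on the log2 scale, and Gstz1, which carries out a late step of tyrosine breakdown, by 1.21. Of the alpha class, Gsta3 was at 3.55 to 5.51 CPM (median 4.69) in imiquimod ears and 7.59 to 14.5 CPM (median 9.79) in sham ears at day 8 (-1.05 ± 0.17, adjusted p = 5.55e-07), without overlap. Gsta2 differed by -1.08 at day 5 and -0.70 at day 8, both called, and by -0.20 in the start-day experiment, which was not called.

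Gstp1, the most studied pi-class enzyme, stayed close to sham. It was at 53.4 to 61.9 CPM (median 59.2) in imiquimod ears at day 8, against 55.6 to 64.1 CPM (median 59.9) in sham ears, with overlapping ranges, and the difference of 0.13 ± 0.06 (adjusted p = 0.0381) turned to -0.04 (adjusted p = 0.536) when scaled by library totals alone and was not called in 11 of the other alternatives. In the start-day experiment it was at 47.1 to 55.6 CPM (median 53.2) in imiquimod ears and 67.9 to 79.1 CPM (median 72.2) in sham ears (-0.24 ± 0.04, adjusted p = 1.03e-05), without overlap. The near copy Gstp2 fell further in that experiment (-1.53 ± 0.15, adjusted p = 3.50e-11).

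**Figure D2:**
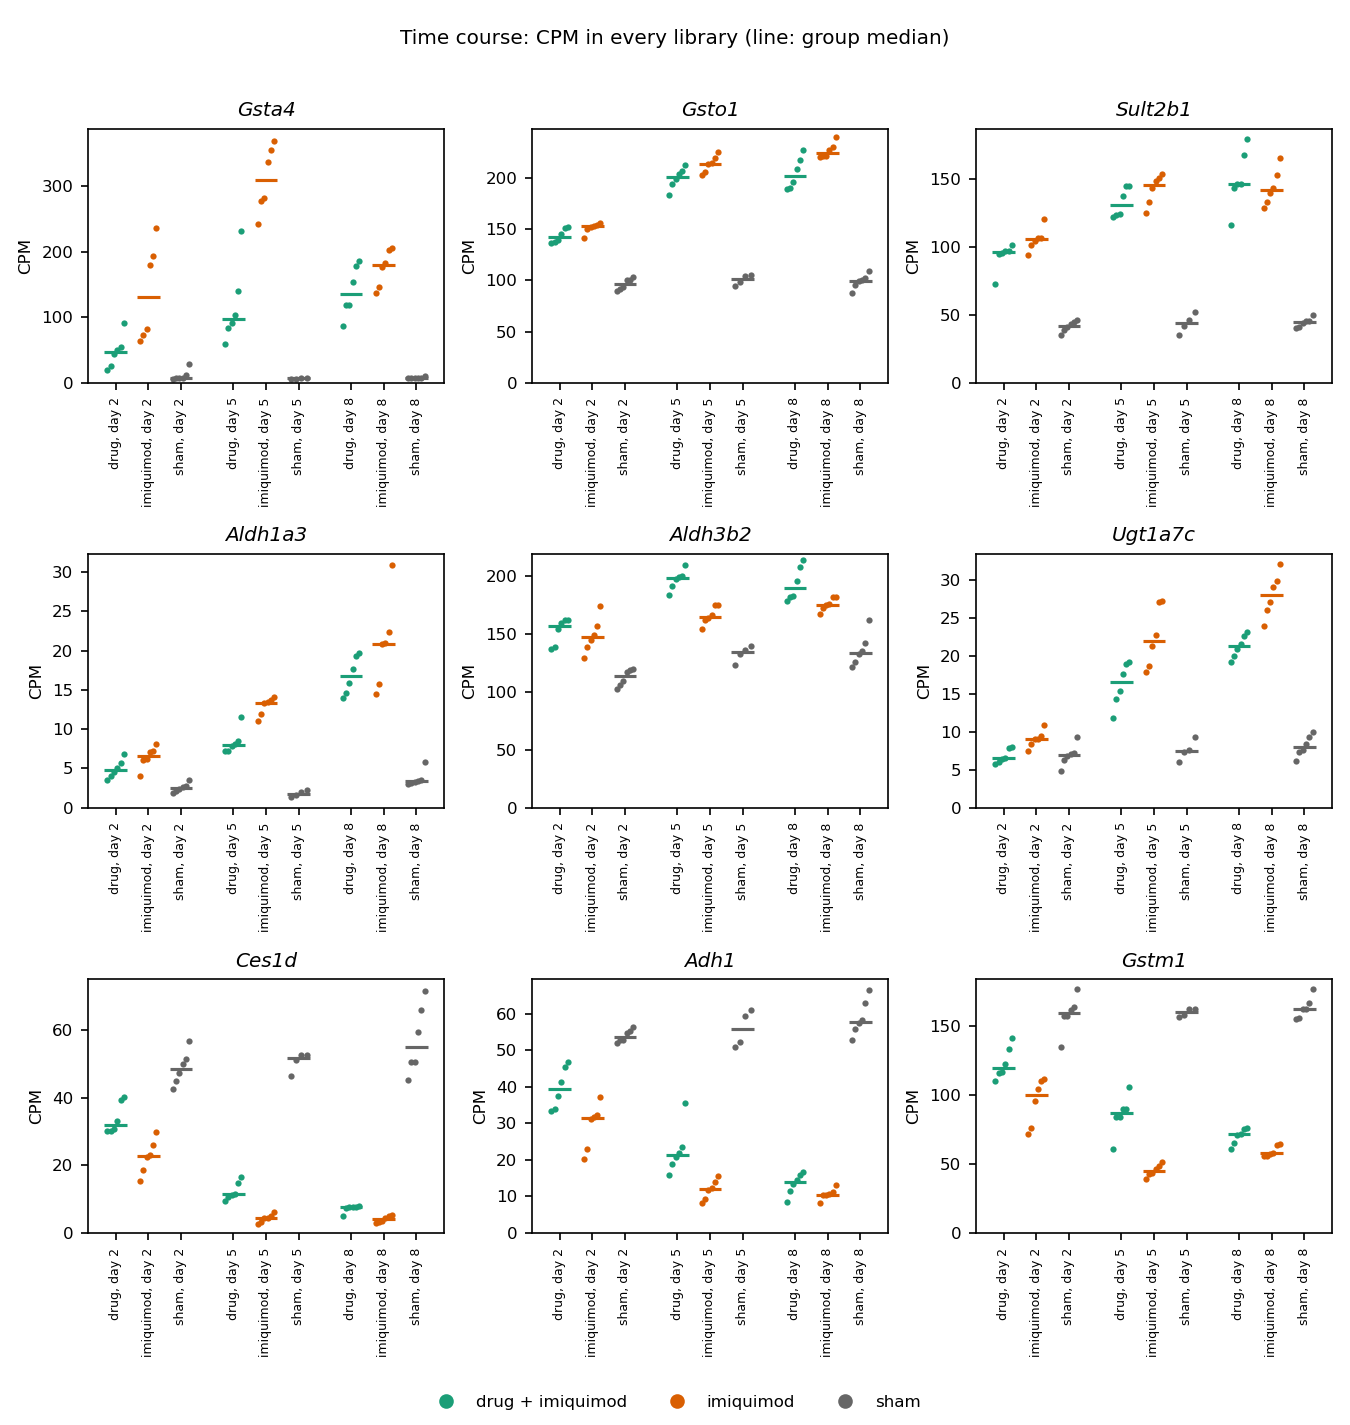
CPM of 9 members by day (2, 5 and 8) in drug, imiquimod and sham ears of the time course, 1 point per library with the group median as a line, each panel on its own linear scale from 0. Gsta4, Gsto1, Sult2b1, Aldh1a3, Aldh3b2 and Ugt1a7c lie higher in imiquimod than in sham ears at day 8, and Ces1d, Adh1 and Gstm1 lie lower.

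Genes of the Aldh1a group, some of which carry out the step from retinaldehyde to retinoic acid, parted ways. Aldh1a1 was at 7.13 to 11.3 CPM (median 8.09) in imiquimod ears at day 8, against 32.3 to 52.9 CPM (median 39.2) in sham ears (-2.05 ± 0.15, adjusted p = 4.74e-17). Aldh1a7, its neighbour and close relative in rodents, was at 1.01 to 2.54 CPM (median 1.76) in imiquimod ears and 10.4 to 12.7 CPM (median 11.2) in sham ears (-2.45 ± 0.15, adjusted p = 1.96e-20). Aldh1a3 went the other way, with 14.4 to 30.8 CPM (median 20.9) in imiquimod ears and 3.04 to 5.83 CPM (median 3.35) in sham ears (2.66 ± 0.17, adjusted p = 7.00e-19). All 3 genes had groups without overlap in every imiquimod comparison. Aldh1a3 differed by 1.40 at day 2, 3.04 at day 5 and 2.94 in the start-day experiment. Aldh1a2 was low, at 0.06704 to 0.839 CPM (median 0.439) in imiquimod ears and 0.4199 to 1.45 CPM (median 0.921) in sham ears at day 8, and was called in no comparison (-0.88 ± 0.50, adjusted p = 0.114 at day 8).

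Other genes of retinoid handling were followed in a list of 20, chosen with earlier results of these data known. With imiquimod, 4 were higher and 10 lower at day 8, and 4 higher and 11 lower in the start-day experiment. Of all tested genes, 34.5% were higher and 33.6% lower at day 8, and 38.1% and 39.9% in the start-day experiment. Dhrs9, a short-chain dehydrogenase that oxidises retinol, was at 12.2 to 19.6 CPM (median 15.2) in imiquimod ears and 1.34 to 2.63 CPM (median 1.56) in sham ears at day 8 (3.31 ± 0.22, adjusted p = 7.00e-18). Rbp4, the carrier of retinol in plasma, was at 3.09 to 4.56 CPM (median 3.41) in imiquimod ears and 13.8 to 20.1 CPM (median 17.03) in sham ears (-2.08 ± 0.16, adjusted p = 1.78e-16), and Dhrs3, which reduces retinaldehyde back to retinol, differed by -0.96. With the drug, 8 of the 20 were higher and 5 lower at day 5, and 9 higher and 5 lower with the drug from day 0. The shares of all genes were 18.3% higher and 17.2% lower at day 5, and 18.2% and 16.9% from day 0.

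Of the aldehyde dehydrogenases that act on fatty aldehydes, Aldh3a2, whose human counterpart is mutated in Sjögren-Larsson syndrome, was at 24.5 to 34.4 CPM (median 29.1) in imiquimod ears at day 8, against 48.6 to 52.3 CPM (median 50.5) in sham ears (-0.60 ± 0.06, adjusted p = 8.83e-13). Aldh3a1, which is best known as a protein of the cornea, was at 64.7 to 72.3 CPM (median 66.7) in imiquimod ears and 129 to 189.6 CPM (median 143) in sham ears (-0.94 ± 0.12, adjusted p = 4.10e-09). Both were clear of sham ears from day 5. The Aldh3b genes rose instead. Aldh3b2 was at 167 to 182 CPM (median 175) in imiquimod ears and 121 to 162 CPM (median 134) in sham ears (0.53 ± 0.06, adjusted p = 4.24e-11), while Aldh3b3 differed by 2.13 and Aldh3b1 by 0.94.

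Mitochondrial and amino acid enzymes of the family also split. Aldh2, which clears acetaldehyde, was at 122 to 139 CPM (median 131) in imiquimod ears at day 8, against 268 to 299 CPM (median 292) in sham ears (-0.97 ± 0.05, adjusted p = 4.07e-23), apart on all days. Aldh6a1, of valine breakdown, fell by 1.61 and Aldh4a1, of proline breakdown, by 0.54. Aldh18a1, which makes the precursor of proline, was at 52.1 to 61.8 CPM (median 56.5) in imiquimod ears and 22.8 to 31.2 CPM (median 25.8) in sham ears (1.30 ± 0.11, adjusted p = 1.46e-14), also apart on all days. Aldh5a1, the succinic semialdehyde dehydrogenase, was not called at day 2 (0.23 ± 0.14, adjusted p = 0.164) and at day 8 was at 24.7 to 32.2 CPM (median 27.9) in imiquimod ears and 6.62 to 9.71 CPM (median 7.84) in sham ears (1.97 ± 0.14, adjusted p = 1.68e-17). Its effect differed among days (edgeR adjusted p = 2.63e-09). Aldh1l2, a mitochondrial enzyme of folate metabolism, rose by 2.17 at day 8, and its cytosolic relative Aldh1l1 differed by -0.06, which was not called.

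Of the 5 alcohol dehydrogenases, 4 were higher and 1 lower with imiquimod at day 2, 1 higher and 4 lower at day 5, and 0 higher and 3 lower at day 8. Of all genes, 29.2% were higher and 28.5% lower at day 2, 34.6% and 35.9% at day 5, and 34.5% and 33.6% at day 8. Adh1, a class I enzyme that oxidises ethanol and retinol, was the lower Adh member at day 2. It was at 20.3 to 37.1 CPM (median 31.4) in imiquimod ears at day 2, against 52.1 to 56.3 CPM (median 53.7) in sham ears (-0.80 ± 0.14, adjusted p = 5.70e-06), and at 8.11 to 13.1 CPM (median 10.5) in imiquimod ears at day 8, against 52.9 to 66.6 CPM (median 57.8) in sham ears (-2.31 ± 0.16, adjusted p = 1.22e-17). Adh6a was at 14.001 to 29.98 CPM (median 20.8) in imiquimod ears at day 2, against 8.91 to 11.9 CPM (median 10.7) in sham ears (1.08 ± 0.24, adjusted p = 1.44e-04). At day 8 it was at 0.692 to 2.998 CPM (median 1.504) in imiquimod ears and 11.8 to 16.8 CPM (median 13.2) in sham ears (-2.85 ± 0.29, adjusted p = 7.92e-12). Every imiquimod library was above every sham library at day 2 and below every one at day 5 and day 8, and the effect differed among days (edgeR adjusted p = 1.11e-10). Adh6b turned in the same way, by 0.94 at day 2 and -1.78 at day 8.

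Adh7, a class IV enzyme of epithelia that oxidises retinol, was at 49.8 to 77.7 CPM (median 72.2) in imiquimod ears at day 5, against 134, 137, 142 and 166 CPM in the 4 sham ears (-0.91 ± 0.15, adjusted p = 8.69e-07). At day 8 it was at 94.4 to 116 CPM (median 111) in imiquimod ears and 136 to 174 CPM (median 140.5) in sham ears. These CPM did not overlap, but the TMM-scaled difference was not called (-0.28 ± 0.14, adjusted p = 0.0707). In 3 of 18 alternatives Adh7 was called lower at day 8, by differences of -0.45 to -0.29. Adh5, the class III enzyme that handles formaldehyde bound to glutathione, was at 49.7 to 57.1 CPM (median 54.3) in imiquimod ears and 53.5 to 63.4 CPM (median 56.5) in sham ears at day 8, a difference of 0.09 ± 0.06 (adjusted p = 0.168) that was not called and turned to -0.08 with library totals alone.

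**Figure D3:**
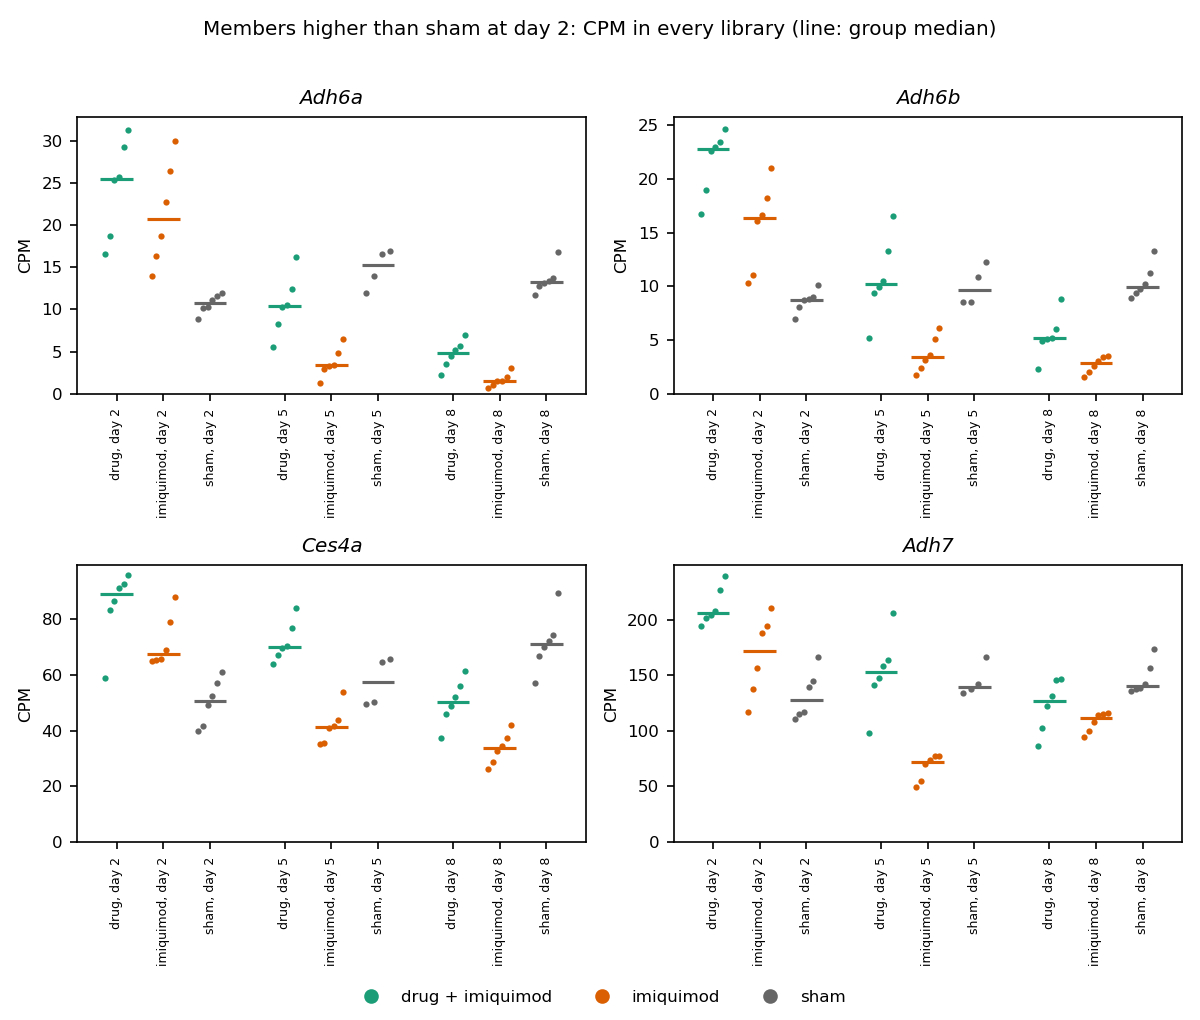
CPM of Adh6a, Adh6b, Ces4a and Adh7 by day in drug, imiquimod and sham ears of the time course, 1 point per library with the group median as a line. At day 2 the imiquimod libraries of Adh6a, Adh6b and Ces4a lie above the sham libraries, and at day 8 below them.

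The carboxylesterases of the Ces1 group held the largest falls of all members at day 5, at day 8 and in the start-day experiment. Ces1d, which hydrolyses triacylglycerol in fat and liver, was at 15.3 to 29.8 CPM (median 22.8) in imiquimod ears at day 2, against 42.7 to 56.7 CPM (median 48.6) in sham ears (-1.03 ± 0.14, adjusted p = 1.15e-08), and at 2.95 to 5.25 CPM (median 3.98) in imiquimod ears at day 8, against 45.2 to 71.8 CPM (median 55.001) in sham ears (-3.64 ± 0.16, adjusted p = 5.42e-24). In the start-day experiment it was at 1.73 to 3.404 CPM (median 2.36) in imiquimod ears and 51.2 to 70.4 CPM (median 59.5) in sham ears (-4.35 ± 0.18, adjusted p = 7.77e-19). The groups were apart in all 4 comparisons, and the effect differed among days (edgeR adjusted p = 3.91e-13). Ces1f was low throughout, at 0.422 to 0.939 CPM (median 0.645) in imiquimod ears and 2.53 to 4.62 CPM (median 3.24) in sham ears at day 8 (-2.20 ± 0.26, adjusted p = 2.27e-10). Ces1e had 0 counts in all 6 imiquimod libraries of day 8 together and 104 in the 6 sham libraries, at least 26.8-fold lower in imiquimod ears; the bound takes 3 counts over the group.

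Of the Ces2 genes, Ces2e and Ces2g rose in every imiquimod comparison, while Ces2f was called lower at day 8 (-0.41) and higher in the start-day experiment (0.65). Ces2g was at 104 to 138 CPM (median 111) in imiquimod ears at day 8, against 52.01 to 56.03 CPM (median 54.3) in sham ears (1.25 ± 0.09, adjusted p = 5.61e-17), without overlap on any day. Ces2e was near the level of detection, at 0.872 to 1.79 CPM (median 1.36) in imiquimod ears and 0 to 0.972 CPM (median 0.263) in sham ears (1.95 ± 0.34, adjusted p = 1.62e-06), and overlapped sham ears at day 5 and day 8. Ces4a was at 65.1 to 87.9 CPM (median 67.4) in imiquimod ears at day 2, against 39.9 to 61.1 CPM (median 50.7) in sham ears (0.60 ± 0.12, adjusted p = 5.15e-05), and at 26.1 to 42.1 CPM (median 33.7) in imiquimod ears at day 8, against 57.2 to 89.4 CPM (median 71.2) in sham ears (-0.92 ± 0.13, adjusted p = 1.45e-08).

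The 4 sulfotransferases split evenly, 2 higher and 2 lower in each imiquimod comparison. Of all genes, 29.2% to 38.1% were higher and 28.5% to 39.9% lower in these comparisons. Sult2b1, which makes the cholesterol sulfate of the epidermis, was at 129 to 166 CPM (median 142) in imiquimod ears at day 8, against 40.6 to 50.2 CPM (median 44.9) in sham ears (1.87 ± 0.09, adjusted p = 2.69e-22), apart on all days. Sult4a1, best known from brain, rose by 1.46. Sult1a1, which sulfates phenols, was at 5.497 to 10.2 CPM (median 7.32) in imiquimod ears and 18.8 to 25.6 CPM (median 22.5) in sham ears (-1.43 ± 0.15, adjusted p = 2.67e-12), and Sult5a1 was at 3.49 to 6.53 CPM (median 5.89) in imiquimod ears and 20.02 to 33.7 CPM (median 25.4) in sham ears (-2.07 ± 0.15, adjusted p = 6.62e-17). Both were below sham in every library from day 2.

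Within the Ugt1a locus, Ugt1a1 fell while Ugt1a7c rose. Ugt1a1, the enzyme that conjugates bilirubin, was at 37.1 to 52.5 CPM (median 43.8) in imiquimod ears at day 8, against 104 to 130.1 CPM (median 109.8) in sham ears (-1.16 ± 0.10, adjusted p = 1.04e-13). Ugt1a7c was at 24.01 to 32.1 CPM (median 28.1) in imiquimod ears and 6.195 to 9.97 CPM (median 8.04) in sham ears (1.95 ± 0.12, adjusted p = 2.13e-19). Both were clear of sham ears from day 5 and overlapped at day 2, where Ugt1a1 was not called (-0.07 ± 0.10, adjusted p = 0.57). Ugt1a6b was at 1.905 to 6.24 CPM (median 3.51) in imiquimod ears and 1.98 to 4.56 CPM (median 3.697) in sham ears at day 8 and was not called (0.23 ± 0.27, adjusted p = 0.457). At day 2 it was called lower (-0.73), a call lost in 6 of 19 alternatives. In the start-day experiment it was called higher, which was lost in 1 of 18. With the drug at day 2 it was higher by 1.07 (edgeR adjusted p = 0.0096). Without imiquimod libraries 9 and 11 that difference was 1.02 and not called (edgeR adjusted p = 0.141). Ugt1a6a differed by 0.48 at day 8, with overlapping groups.

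With the drug, members were more often higher than lower relative to imiquimod alone. At day 5, 28 of 60 members were higher and 9 lower in drug than in imiquimod ears, where 35.4% of all genes were called, 18.3% higher and 17.2% lower. At day 8, 6 members were higher and 0 lower, against 1.56% of all genes, 1.22% higher. The 6 were Adh6a, Adh6b, Aldh2, Ces1d, Ces4a and Ugt1a1. At day 2, 7 were higher and 6 lower, against 16.5% of all genes, 6.9% higher and 9.61% lower. Without imiquimod libraries 9 and 11, edgeR called 0 members and 7 of 18741 genes, of which 2795 had an unadjusted p under 0.05. Within their group these 2 libraries lay furthest from sham for Gsta4, Gstm1 and Adh1. Leaving them out was therefore bound to narrow the drug differences of these genes. With only the compared groups and both libraries kept, 0 of 57 members and 0 of 16355 genes were called. Leaving out single libraries gave 4 to 20 members, and DESeq2 on all libraries gave 17. The drug effect differed among days for 11 of 60 members (7.99% of all genes). The median member differed by 0.15 at day 2, 0.25 at day 5 and 0.09 at day 8, against medians of all genes of 0.01, 0.02 and 0.00. Each drug comparison shares its imiquimod libraries with the imiquimod comparison of the same day.

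Gsta4 was at 58.5 to 232 CPM (median 97.4) in drug ears at day 5, against 243 to 369.7 CPM (median 310.2) in imiquimod ears (-1.40 ± 0.32, adjusted p = 5.33e-04). All drug libraries were below all imiquimod libraries, with 1 drug library just under the imiquimod range. At day 8 Gsta4 was at 86.6 to 186 CPM (median 136) in drug ears and 138 to 206 CPM (median 179.8) in imiquimod ears, overlapping, and was not called (-0.30 ± 0.31, adjusted p = 0.728). At day 2 the difference was -1.54 ± 0.33 (adjusted p = 0.0017), and -1.07 (adjusted p = 0.126) without imiquimod libraries 9 and 11. The other members lower with the drug at day 5 were Adh5, Aldh18a1, Aldh1a3, Aldh1l2, Aldh3b1, Aldh5a1, Ces2g and Ugt1a7c, with differences of -0.18 to -0.69. Gsto1 and Sult2b1, both higher under imiquimod, were not called at any day of the time course (-0.10 and -0.11 at day 5). In the start-day experiment both were called lower with the drug from day 0, and the Gsto1 call was lost in 2 of 18 alternatives.

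Ces1d was at 9.45 to 16.7 CPM (median 11.4) in drug ears at day 5, against 2.76 to 6.08 CPM (median 4.43) in imiquimod ears (1.53 ± 0.16, adjusted p = 3.12e-09), without overlap, and at 5.13 to 7.85 CPM (median 7.6003) in drug ears at day 8, against 2.95 to 5.25 CPM (median 3.98) in imiquimod ears (0.85 ± 0.17, adjusted p = 0.00742), where the lowest drug library lay within the imiquimod range. Ces4a was at 64.01 to 84.04 CPM (median 70.1) in drug ears at day 5 and 35.3 to 53.9 CPM (median 41.3) in imiquimod ears (0.78 ± 0.12, adjusted p = 3.94e-06), also apart. Adh6a was at 2.25 to 6.96 CPM (median 4.84) in drug ears at day 8, against 0.692 to 2.998 CPM (median 1.504) in imiquimod ears (1.51 ± 0.31, adjusted p = 0.00742), with overlap. Adh7 was at 97.9 to 206 CPM (median 153) in drug ears at day 5 and 49.8 to 77.7 CPM (median 72.2) in imiquimod ears (1.18 ± 0.14, adjusted p = 3.81e-08), apart, and differed by 0.20 at day 8, not called. Its drug effect differed among days (edgeR adjusted p = 0.00373).

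Aldh2 was the member whose drug effect differed among days with the smallest adjusted p (0.00247, edgeR). It was at 167 to 213 CPM (median 181) in drug ears at day 5, against 121 to 141 CPM (median 132) in imiquimod ears (0.50 ± 0.05, adjusted p = 2.22e-10), and at 141 to 164 CPM (median 150.5) in drug ears at day 8, against 122 to 139 CPM (median 131) in imiquimod ears (0.24 ± 0.05, adjusted p = 0.00742). On both days the groups were apart. Gstm1 was at 60.5 to 106 CPM (median 86.8) in drug ears at day 5 and 39.2 to 51.3 CPM (median 44.8) in imiquimod ears (0.92 ± 0.09, adjusted p = 7.56e-10), without overlap, and differed by 0.27 at day 8, not called. Aldh3a1 was at 53.3 to 98.1 CPM (median 74.3) in drug ears at day 5 and 36.5 to 48.3 CPM (median 42.9) in imiquimod ears (0.84 ± 0.12, adjusted p = 1.27e-06), apart as well. Ugt1a1 was at 54.6 to 92.4 CPM (median 82.5) in drug ears and 37.4 to 53.9 CPM (median 44.8) in imiquimod ears (0.80 ± 0.10, adjusted p = 1.21e-07), and at day 8 at 47.8 to 68.3 CPM (median 58.9) in drug ears and 37.1 to 52.5 CPM (median 43.8) in imiquimod ears (0.42 ± 0.10, adjusted p = 0.0285). Its groups were apart at day 5 and overlapped at day 8.

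In the start-day experiment, the drug was followed by calls in both directions at each start. Starting at day 0, 25 of 58 members were higher and 13 lower in drug than in imiquimod ears, where 35.1% of all genes were called, 18.2% higher and 16.9% lower. Starting at day 3, 25 were higher and 9 lower, against 34.3%, 18% higher and 16.4% lower. Starting at day 5, 21 were higher and 8 lower, against 27.7%, 15% higher and 12.7% lower. By family, Adh had 4 higher and 1 lower at each start, and Gst had 8 higher at day 0, 8 at day 3 and 7 at day 5, each with 3 lower. The 3 comparisons share their imiquimod libraries. No member was called as differing among the 3 starts by edgeR's F test: 0 of 58 were called, where 0.00542% of all genes were called, and DESeq2 called 1 member. By edgeR's F test, 6 members had an unadjusted p under 0.05. So did 1409 of 17639 genes in edgeR with only the compared groups, and 1788 of 18434 genes in DESeq2. The smallest adjusted p was 0.0819, for Aldh1a3. A p that misses the threshold does not show that the starts act alike.

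Gsta4 was at 107 to 173 CPM (median 124) in ears with the drug from day 0, 87.5 to 145 CPM (median 115) from day 3 and 89.98 to 169 CPM (median 130.5) from day 5, against 225 to 353 CPM (median 288) in imiquimod ears. The differences were -1.14 ± 0.15 (adjusted p = 1.93e-06), -1.31 ± 0.15 (adjusted p = 4.72e-07) and -1.13 ± 0.15 (adjusted p = 6.52e-06), and no drug library reached the imiquimod range. Ces1d was at 4.37 to 7.7998 CPM (median 5.46) from day 0, 3.35 to 4.797 CPM (median 4.31) from day 3 and 2.28 to 5.87 CPM (median 3.87) from day 5, against 1.73 to 3.404 CPM (median 2.36) in imiquimod ears. Its differences were 1.18 ± 0.19 (adjusted p = 2.18e-05), 0.78 ± 0.19 (adjusted p = 0.00243) and 0.64 ± 0.20 (adjusted p = 0.0157), and only the day 0 group was clear of imiquimod ears. Aldh2 was at 142 to 163 CPM (median 153) from day 0, 144 to 154 CPM (median 149) from day 3 and 122 to 155 CPM (median 142) from day 5, against 109.6 to 119 CPM (median 116) in imiquimod ears. All 3 groups were apart from imiquimod, with differences of 0.41, 0.40 and 0.31. Gstm1 differed by 0.68, 0.70 and 0.59 and Ugt1a1 by 0.97, 0.98 and 0.71, also apart from imiquimod at each start.

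Aldh1a3 had drug differences of opposite sign between starts, but a difference among starts was not called (edgeR F test, adjusted p = 0.0819). It was at 10.7 to 19.2 CPM (median 15.3) with the drug from day 0, 20.9 to 27.9 CPM (median 25.4) from day 3 and 14.4 to 28.6 CPM (median 24.7) from day 5, against 16.3 to 23.2 CPM (median 20.7) in imiquimod ears. The differences were -0.38 ± 0.14 (adjusted p = 0.0394), 0.37 ± 0.14 (adjusted p = 0.0411) and 0.28 ± 0.14 (adjusted p = 0.134), and every drug group overlapped the imiquimod group. Both calls were close to the threshold, and the call from day 0 was lost in 9 of 18 alternatives and that from day 3 in 11 of 18. Among the other Aldh1a genes, Aldh1a7 differed by 1.17, 1.01 and 0.91, all called, and Aldh1a1 by 0.58, 0.34 and 0.28, called from day 0 alone.

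**Figure D4:**
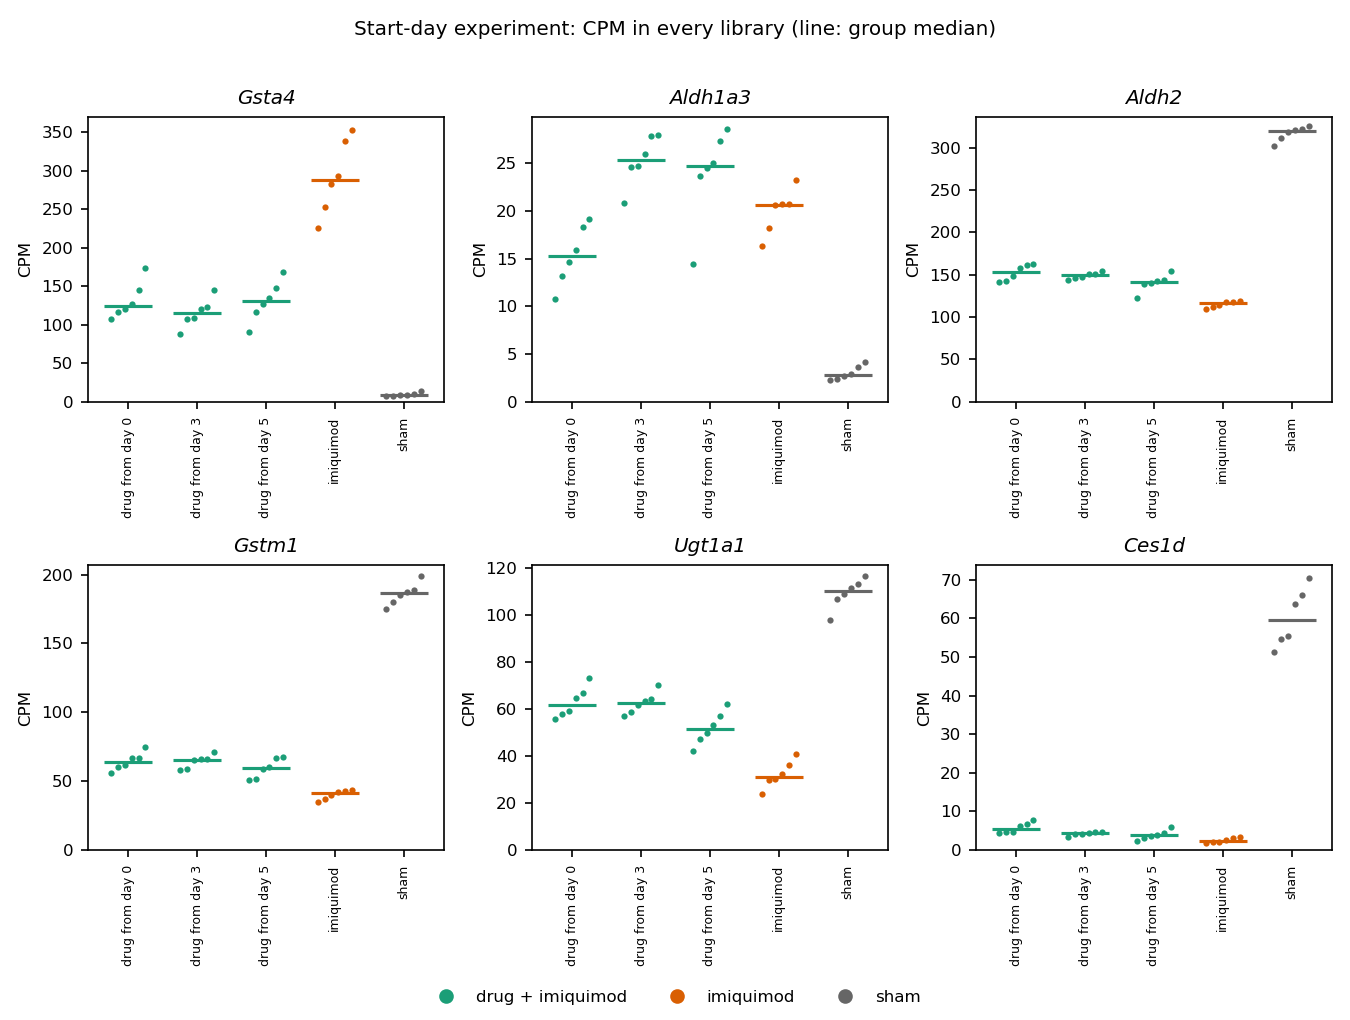
CPM of Gsta4, Aldh1a3, Aldh2, Gstm1, Ugt1a1 and Ces1d in the start-day experiment, for the drug from day 0, day 3 and day 5, imiquimod alone and sham, 1 point per library with the group median as a line. Gsta4 lies lower and Aldh2, Gstm1 and Ugt1a1 lie higher in all 3 drug groups than in imiquimod ears.

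The day 8 drug group of the time course and the group with the drug from day 0 are the closest in their labels. The drug effects of the 2 were compared in a joint fit with separate sham and imiquimod groups for each experiment. Of 60 members, 0 differed by edgeR, where 0.828% of all genes were called. An unadjusted p under 0.05 was found for 14 members. The share of all genes at that unadjusted level was not counted, so the 14 cannot be set beside the 0.828%. The smallest adjusted p values were 0.0513 for Ugt1a1, whose day 8 effect minus its day 0 effect was -0.55 ± 0.15, and 0.0521 for Aldh1a7, at -0.79 ± 0.22.

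Drug effects in one experiment were set beside imiquimod effects of the other, which have no library in common. Of the 31 members lower with imiquimod in the start-day experiment, 25 were higher and 0 lower with the drug at day 5, out of 28 members higher with the drug then. Among all 7344 genes lower with imiquimod there, 36% were higher with the drug and 3.94% lower. Of the 24 members higher with imiquimod, 8 were lower with the drug and 2 higher, out of 9 members lower with the drug, against 37.7% lower and 5.6% higher of 6925 genes. The median drug difference of the 31 members was 0.57, against 0.20 for all such genes, and that of the 24 members was -0.10, against -0.14. For the drug from day 0, set beside imiquimod at day 8 of the time course, 24 of 30 lower members were higher with the drug, against 41.7% of 6141 genes, and 12 of 21 higher members were lower, against 39.4% of 6442 genes. Across 58 members, the drug difference at day 5 and the imiquimod difference in the start-day experiment had a Pearson r of -0.783 and a Spearman rho of -0.763, against -0.623 and -0.618 across 18198 genes. Genes are not independent replicates, so these values are descriptions.

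**Figure D5:**
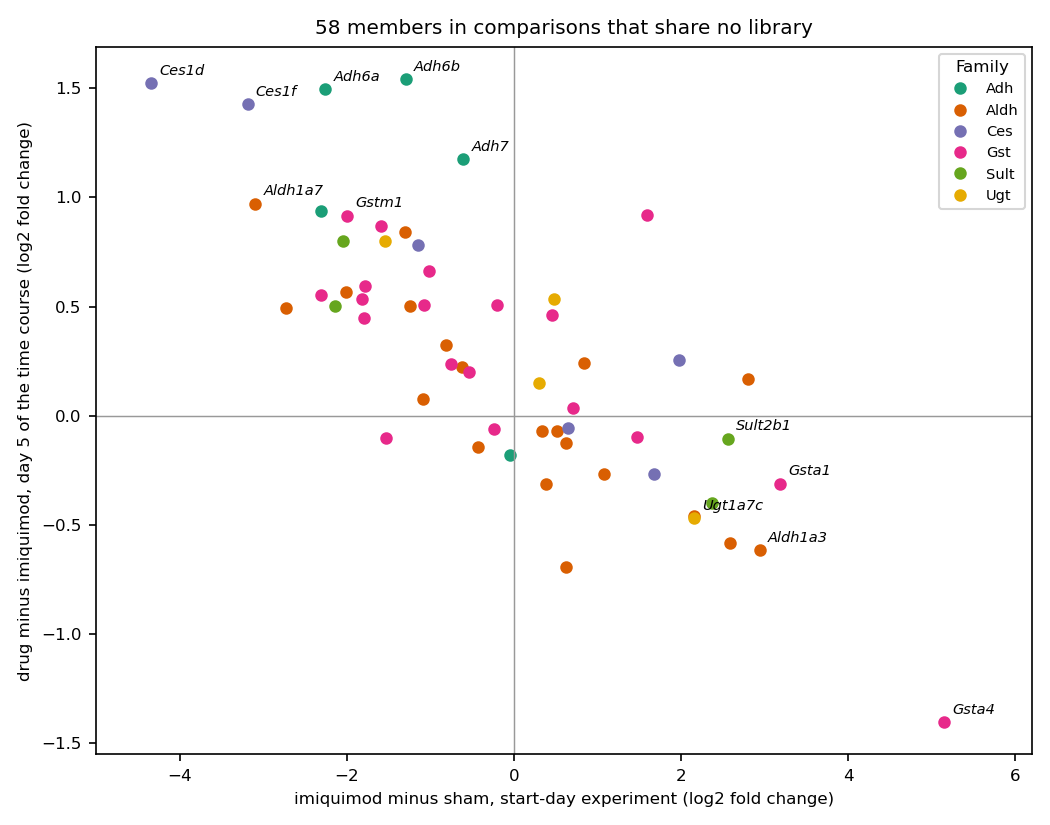
Drug minus imiquimod at day 5 of the time course (y axis, edgeR log2 fold change) against imiquimod minus sham in the start-day experiment (x axis) for 58 members, 1 point per gene, coloured by family. Of the members lower with imiquimod on the x axis, 25 are called higher with the drug on the y axis, and Gsta4 lies far to the right at 5.15 and -1.40.

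Genes that share regulators or substrates with the members were followed in lists that, like the members, were chosen with earlier results of these data known. A list of 20 genes covered the NRF2 response, the programme that supplies glutathione and NADPH under oxidative stress. With imiquimod, 17 were higher and 2 lower at day 5, and 18 higher and 0 lower in the start-day experiment. Of all tested genes, 34.6% were higher and 35.9% lower at day 5, and 38.1% and 39.9% in the start-day experiment. Slc7a11, the cystine importer, was at 107 to 122 CPM (median 111) in imiquimod ears at day 8, against 0.965 to 2.405 CPM (median 1.78) in sham ears (6.21 ± 0.33, adjusted p = 1.21e-20). Gpx2, a glutathione peroxidase of epithelia, was at 13.7 to 22.5 CPM (median 17.6) in imiquimod ears and 1.103 to 1.85 CPM (median 1.43) in sham ears at day 8 (3.78 ± 0.22, adjusted p = 1.42e-20). With the drug, 1 of the 20 was higher and 12 lower at day 5, against 18.3% higher and 17.2% lower of all genes. Slc7a11 differed by -0.96 at day 5, which was called.

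Of 8 tested genes of the AHR response, 6 were higher and 2 lower with imiquimod at day 2, and 4 higher and 3 lower at day 8. Of all genes, 29.2% were higher and 28.5% lower at day 2, and 34.5% and 33.6% at day 8. With the drug, 1 of the 8 was higher and 5 lower at day 5, and likewise from day 0 and from day 5. From day 3, 2 were higher and 5 lower. Between 12.7% and 17.2% of all genes were lower in these drug comparisons, and 15% to 18.3% higher. Cyp1a1, the classical AHR target, was among the 3 lower with imiquimod at day 8, while the median difference of the list was 0.25. It was at 3.42 to 9.601 CPM (median 5.38) in imiquimod ears and 14.1 to 29.8 CPM (median 19.3) in sham ears (-1.66 ± 0.24, adjusted p = 3.24e-08). With the drug at day 8 it was at 8.401 to 19.04 CPM (median 12.2), against the same imiquimod ears (1.23 ± 0.24, adjusted p = 0.00608). Cyp1a1 was then the only tested gene of the list that was called. Of 20 tested genes of other conjugation and hydrolysis enzymes, 6 were higher and 11 lower with imiquimod at day 8. Of all genes, 34.5% were higher and 33.6% lower then. Ephx1, the microsomal epoxide hydrolase, was at 33.99 to 38.5 CPM (median 36.3) in imiquimod ears and 89.5 to 108 CPM (median 98.5) in sham ears (-1.28 ± 0.09, adjusted p = 1.13e-16), and Akr1b8, a reductase of aldehydes, was at 47.3 to 63.1 CPM (median 54.6) in imiquimod ears and 9.77 to 11.8 CPM (median 10.2) in sham ears (2.54 ± 0.22, adjusted p = 3.71e-14). Of 14 genes of glutathione and cofactor supply, 7 were higher and 4 lower with imiquimod at day 8, beside the same shares of all genes.

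Markers of cell types also differed between groups, some lists mostly in 1 direction and others in both. Of all genes, 34.5% were higher and 33.6% lower with imiquimod at day 8. With the drug, 18.3% of all genes were higher and 17.2% lower at day 5, and 1.22% higher at day 8. Shares for the other comparisons are given above. Of 8 keratinocyte markers, 6 were higher and 2 lower with imiquimod at day 8, with a summed level of 54820 to 61130 CPM in imiquimod ears and 27400 to 30010 CPM in sham ears, and 7 were higher and 1 lower in the start-day experiment (49050 to 61390 CPM in imiquimod ears and 21830 to 25360 CPM in sham ears). At day 5, 4 keratinocyte markers were higher and 4 lower with imiquimod. Of 8 cartilage markers, 6 were lower at day 8, with 304 to 382 CPM in imiquimod ears and 783 to 957 CPM in sham ears. Of 10 sebaceous gland markers, 8 were lower and 1 higher with imiquimod at day 8, with a summed level of 2023 to 3185 CPM in imiquimod ears, against 8426 to 10780 CPM in sham ears, and 9 were lower and 0 higher in the start-day experiment. With the drug, all 10 were higher at day 5 (3270 to 6184 CPM in drug ears, against 1966 to 2944 CPM in imiquimod ears), 6 at day 8 and all 10 at each start day. Of 10 adipocyte markers, all were lower with imiquimod at day 5, day 8 and in the start-day experiment, with summed levels at day 8 of 279 to 364 CPM in imiquimod ears and 607 to 876 CPM in sham ears, and all 10 were higher with the drug at day 5. All 8 skeletal muscle and all 6 Schwann cell markers were lower with imiquimod in each comparison, and 8 of 8 macrophage markers were higher from day 5, with 862 to 1216 CPM in imiquimod ears and 363 to 415 CPM in sham ears at day 8. Of the 8 neutrophil markers, 7 were higher and 1 lower with imiquimod at day 8, and 6 of 7 tested were higher and 1 lower in the start-day experiment. Their sum at day 8 was 4142 to 5555 CPM in imiquimod ears and 74.6 to 92.95 CPM in sham ears. In every sham group 1 marker was at 0. With the drug at day 5, all 8 were lower. Of 8 fibroblast markers, 4 were higher and 3 lower with imiquimod at day 8, and 1 higher and 7 lower with the drug at day 5. Of 6 endothelial markers, 0 were higher and 1 lower with imiquimod at day 8, and 1 higher and 3 lower with the drug at day 5. Of 5 melanocyte markers, 4 were lower with imiquimod at day 8, and 0 were called with the drug at day 5. The part of these cell types in the members' results was not tested.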

How the data were processed

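RNA from right ear punches of mice was made into libraries with the Universal Plus mRNA kit, per the labels' protocols, and sequenced in 82 libraries of 14 groups. The authors deposited 2 tables of expected counts per gene, named for salmon and made against GRCm39 per the submitters' processing notes, with no salmon version, annotation or strand setting named. Each table lists 56941 genes, 11.63% of the deposited count values were not whole, and counts were rounded. Depth was 13.1 to 35.5 M counts per library. All columns matched a sample title, with 0 left over, and no pair of libraries looked like a copy (lowest chi-square per gene 4.13).

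The tables were analysed separately in R 4.3.3. Genes passing filterByExpr were scaled by TMM and tested in edgeR 4.0.16 by its quasi-likelihood F test with robust dispersion and a mean for each group, and p values were adjusted by Benjamini-Hochberg over all 18780 or 18434 tested genes. A joint fit of both tables compared the day 8 drug effect with that from day 0. The edgeR test was tested on counts simulated from day 8 libraries. Alternatives were DESeq2 1.42.0, RLE factors, library totals alone, other count filters, only the compared groups, and each library left out. Motifs and shared words came from RefSeq promoters and GENCODE M21 transcripts, used for sequence only, since their build is GRCm38 and not that of the tables. Members, lists and tests were chosen with earlier results of these data known. Named members were those with a known role in skin, retinoid, fatty aldehyde, steroid or glutathione chemistry, the 3 highest and 3 lowest called changes of each imiquimod comparison, up to 4 called members with the smallest adjusted p in each drug comparison, and the 5 smallest adjusted p values of each F test; 35 members met this.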

Additional observations from a re-analysis of the deposited data

Results flagged for a closer look

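Among 490 pairs of a named member and a group, 32 had 1 library far from the rest of its group, by a gap large against the range of the group. For normally distributed values chance alone gives about 1 in 20. That rate does not hold near 0 counts, where 1 library above 0 among libraries at 0 is always flagged. Ces1e was flagged in this way in drug ears of day 8 and in imiquimod ears of the start-day experiment. Sham library 38 of day 8 was such a library for Aldh1a3 (5.83 CPM), Aldh3a1 (189.6 CPM), Gsta4 (9.43 CPM) and Ugt1a1 (130.1 CPM), each time as the highest. Gsta4 was also high in sham library 5 of day 2 (27.9 CPM) and in sham library 1 of the start-day experiment (14.5 CPM). Other sham values apart from their group were Aldh18a1 (26.7 CPM, library 20, day 5), Aldh1a2 (1.11 CPM, library 6, day 2), Ces2e (0.794 CPM, library 21, day 5), Gstp1 (67.4 CPM, library 19, day 5) and Ugt1a6b (5.49 CPM, library 2, day 2).

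In imiquimod ears these were Adh5 (69.5 CPM, library 9, day 2), Gsto1 (142 CPM, library 12, day 2), Gstt1 (4.91 CPM, library 27, day 5), and, in the start-day experiment, Aldh3b2 (224.5 CPM, library 7) and Ces1e (0.0281 CPM, library 9). In drug ears of the time course these were Aldh5a1 (11.6 CPM, library 16), Ces4a (58.7 CPM, library 15) and Sult2b1 (72.6 CPM, library 13) at day 2, Aldh1a3 (11.6 CPM, library 33) and Gsta3 (8.83 CPM, library 32) at day 5, and Ces1d (5.13 CPM, library 55) and Ces1e (0.147 CPM, library 54) at day 8. With the drug from day 0 these were Aldh18a1 (57.5 CPM, library 28), Aldh3b2 (200.3 CPM, library 30), Aldh5a1 (16.6 CPM, library 30) and Ces4a (82.0 CPM, library 25), from day 3 Aldh5a1 (33.2 CPM, library 22), and from day 5 Aldh1a1 (12 CPM, library 13), Aldh1a3 (14.4 CPM, library 13), Ces4a (29.2 CPM, library 14) and Gstm2 (46.5 CPM, library 16).

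The imiquimod effect differed among days 2, 5 and 8, by edgeR's F test, with the smallest adjusted p for Ces1d (3.91e-13), Adh6a (1.11e-10), Gsto1 (4.51e-10), Aldh5a1 (2.63e-09) and Ugt1a7c (8.18e-09), whose differences at days 2, 5 and 8 were 0.46, 1.76 and 1.95. The drug effect differed among days with the smallest adjusted p for Aldh2 (0.00247), Gstm1 (0.00326), Adh7 (0.00373), Aldh3a1 (0.00697) and Ugt1a1 (0.0132), each with its highest difference at day 5.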

How the results depend on the processing

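Counts of called members stayed within 1.5 times the reported count under every alternative in all 4 imiquimod comparisons, in the imiquimod effect among days, and in the drug comparisons at day 5, day 8 and each start day. Leaving out 1 library gave 44 to 50, 50 to 52, 51 to 54 and 55 to 57 members with imiquimod at day 2, day 5, day 8 and in the start-day experiment, 36 to 40 for the imiquimod effect among days, and 35 to 38 and 4 to 7 with the drug at day 5 and day 8, and 35 to 40, 32 to 36 and 25 to 32 from day 0, day 3 and day 5. The drug count at day 2, 13, was 0 with only the compared groups, 0 without imiquimod libraries 9 and 11, and 4 to 20 with 1 library left out: 4 without imiquimod library 9, 6 without 11, 20 without 12, 6 without drug library 13 and 7 without drug library 15. The drug effect among days, 11 members, was 7 with no filter on low counts, 6 with only the compared groups, and 7 to 20 with 1 library left out: 7 without drug library 32, imiquimod library 25 or imiquimod library 30 of day 5, and 20 without drug library 36. The drug start, 0 members, was 1 with DESeq2, 1 with library totals alone, and 0 to 1 with 1 library left out (1 without library 13 of the drug from day 5). The drug effect at day 8 against that from day 0, 0 members, was 3 with library totals alone and 1 at 1 CPM in 4 libraries. The causes were not tested.

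Over the named members' log2 differences, 2901 alternatives to a called value kept the call and direction, 104 lost the call and 1 turned, Gstp1 with imiquimod at day 8 (-0.041 with library totals alone). Of the alternatives to uncalled values 26 turned: with library totals alone, Adh5 with imiquimod at day 8 (-0.084) and Aldh1a1 with the drug at day 8 (-0.0082); without imiquimod libraries 9 and 11, Gstt1 (-0.029) and Aldh3b2 (-0.018) with the drug at day 2; and with 1 library left out, Ugt1a6b with imiquimod at day 5 (-0.23 to 0.31) and with the drug at day 8 (-0.10 to 0.28), Aldh1a2 with imiquimod at day 5 (-0.42 to 0.63), with the drug at day 5 (-0.78 to 0.063) and from day 5 (-0.49 to 0.0016), Gstp1 (-0.067 to 0.013) and Aldh3b2 (-0.0059 to 0.082) with the drug at day 2, Ces2g from day 3 (-0.012 to 0.060), and Aldh1a1 (-0.079 to 0.10) and Aldh3a1 (-0.049 to 0.10) with the drug at day 8. No paired analysis was possible because the groups compared share no replicate numbers. Members under about 1 CPM, among them Ces1e, Aldh1a2 and Gsta5, are limited by counting error.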
